A study of Mus musculus with 16 samples.

Results

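The TAM family comprises the receptor tyrosine kinases Tyro3, Axl and Mertk and their ligands Gas6 and Pros1 (protein S). The 5 genes were taken by symbol from the 46078 Ensembl genes of the deposited count table, and all 5 passed the filter on low counts that left 15096 genes for testing. They were measured in demyelinated lesions of the mouse spinal cord, produced with lysolecithin, a lipid detergent that strips myelin. Every mouse, controls included, was C57BL/6, 8 to 12 weeks old and injected with lysolecithin. Exercise mice had a running wheel that turned freely and control mice a locked wheel, and lesions were cut out by laser microdissection at day 5 or day 10. Each of the 4 groups held 4 libraries, numbered in the labels. These numbers are 1, 2, 5 and 6 for control and 1, 2, 7 and 12 for exercise lesions of day 5, and 2, 3, 4 and 5 for control and 13, 17, 18 and 19 for exercise lesions of day 10. Nothing in the labels ties a library to its own animal, and the p-values therefore reflect only how far these libraries spread, which may be technical. The family was chosen by its Mertk counts, whose difference between exercise and control at day 10 was known beforehand. The study asked how physical exercise bears on remyelination, and the comparisons here are exercise against control on each day and day 10 against day 5 within each housing.

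TAM receptors let phagocytes recognise dying cells and membrane debris. Gas6 and Pros1 act as bridges: their vitamin K-dependent Gla domains bind phosphatidylserine exposed on the debris, and their other end binds the receptor. Mertk drives engulfment, Axl is typically raised in inflamed myeloid cells, and Tyro3 is known mainly from neurons and myelinating glia. Gas6 binds all of the receptors, and Pros1 binds Tyro3 and Mertk. In the demyelinated cord these receptors are known on microglia and macrophages, which clear myelin debris.

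The 250 bases before the RefSeq start are shown for Mertk, by which the family was chosen, and for Axl and Pros1, which passed the test from day 5 to day 10 in exercise lesions (GRCm38.p6, gene strand). Capitals mark the GC box, GGGCGG on either strand, a motif of many promoters without a TATA box.
Mertk, chr2:128698665-128698914, plus strand: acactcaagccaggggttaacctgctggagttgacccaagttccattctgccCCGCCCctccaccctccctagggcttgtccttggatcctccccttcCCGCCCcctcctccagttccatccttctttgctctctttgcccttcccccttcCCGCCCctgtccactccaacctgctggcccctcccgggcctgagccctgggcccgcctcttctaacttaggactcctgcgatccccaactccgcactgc
Axl, chr7:25788734-25788983, minus strand: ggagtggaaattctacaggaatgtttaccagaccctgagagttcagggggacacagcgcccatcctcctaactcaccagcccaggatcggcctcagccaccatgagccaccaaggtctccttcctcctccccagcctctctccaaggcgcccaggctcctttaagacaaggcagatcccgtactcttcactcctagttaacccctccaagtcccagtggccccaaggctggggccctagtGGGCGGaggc
Pros1, chr16:62854057-62854306, plus strand: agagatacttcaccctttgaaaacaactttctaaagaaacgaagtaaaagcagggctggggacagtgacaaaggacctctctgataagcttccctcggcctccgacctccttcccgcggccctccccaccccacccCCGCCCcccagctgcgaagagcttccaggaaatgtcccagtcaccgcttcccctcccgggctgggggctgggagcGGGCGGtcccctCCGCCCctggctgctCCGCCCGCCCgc
The Mertk window held 3 GC boxes, the Axl window 1 and the Pros1 window 5, counting matches that overlap each other. The Gas6 window held 4. The Tyro3 window held 3, but it lies inside the Tyro3 gene as GENCODE places it and not upstream of it. All 5 windows thus had at least 1, against 32.9% of the 27025 mouse promoter windows of the same length in the RefSeq table. The ETS core GGAAGT, the nuclear receptor hexamer AGGTCA and the TATA box TATAAA, searched on both strands, had no match in any of the 5 windows. These occurred in 20%, 13.8% and 13% of all windows. The 5 windows were 54.8% to 73.2% G and C, against a median of 52% over all windows.

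Totals ran from 8125981 to 13930582 counts per library. At day 5 the exercise libraries had at most 10930385 counts and the control libraries at least 11204380. The exercise libraries held a larger share of the mitochondrial rRNA mt-Rnr2 (10.9% to 12.9% against 8.05% to 10.3%), so depth and exercise cannot be told apart there. Exercise day 10 replicate 17 stood apart from its group. Its log2 profile lay 0.662 (root mean square over genes) from the mean of the other 3, against 0.464 to 0.591 for the other 15 libraries in their own groups. CPM are counts per 1000000 counts of the library, scaled by TMM for composition. The summed markers of homeostatic microglia in replicate 17 came to 16323 CPM, against 7462 to 10705 in the other 3 libraries, and its mature oligodendrocyte markers to 12165 CPM against 15858 to 27870. Family results that rest on it are given with and without it, and tests of the cell type markers with it only.

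Mertk was highest in exercise lesions at day 10. Its gene lies on chromosome 2 at 128698956 to 128802894, plus strand (ENSMUSG00000014361), with the overlapping gene Gm23172 on the same strand and Gm14011 on the other. Control libraries at day 5 gave 104, 87.6, 75.9 and 82.5 CPM (mean 87.5 ± 12.0, SD, n = 4), and exercise libraries at day 5 gave 98.4, 94.0, 96.8 and 87.8 CPM (94.3 ± 4.65). The groups overlapped at day 5, and the fitted difference was 0.11 on the log2 scale (SE 0.11, adjusted p = 0.764). At day 10 control libraries gave 108, 135, 119.9 and 128 CPM (123 ± 11.4), and exercise libraries, in the order 13, 17, 18 and 19, gave 202, 193, 168 and 185 CPM (187 ± 14.5). All 4 exercise libraries lay above all 4 control libraries. Replicate 17 was within the range of the other exercise libraries for this gene.

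In control lesions Mertk rose 1.40-fold from day 5 to day 10 (log2 0.49, SE 0.11, adjusted p = 0.00548), and no control library of day 5 reached the lowest of day 10. This rise kept its call in each of the 16 fits that left out 1 library, with a log2 change between 0.42 and 0.58. Mertk was chosen with its other differences already known, so those are a description without a test. Exercise exceeded control by 1.53-fold at day 10 (log2 0.61, SE 0.11), and day 10 exceeded day 5 by 1.98-fold in exercise lesions (log2 0.99, SE 0.11). The exercise difference at day 10 was 0.50 larger on the log2 scale than that at day 5 (SE 0.15). Leaving out 1 library kept the day 10 difference between 0.55 and 0.65 on the log2 scale. It nevertheless lost its place among the called genes without control replicate 2 or exercise replicate 12 of day 5, without any 1 of the 4 control libraries of day 10, or without exercise replicate 13, 17 or 19. In several of these fits 0 of all genes were called. They were those without control replicate 2 of day 5, and without control replicate 2 or 3 or exercise replicate 17 or 19 of day 10.

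**Figure D1:**
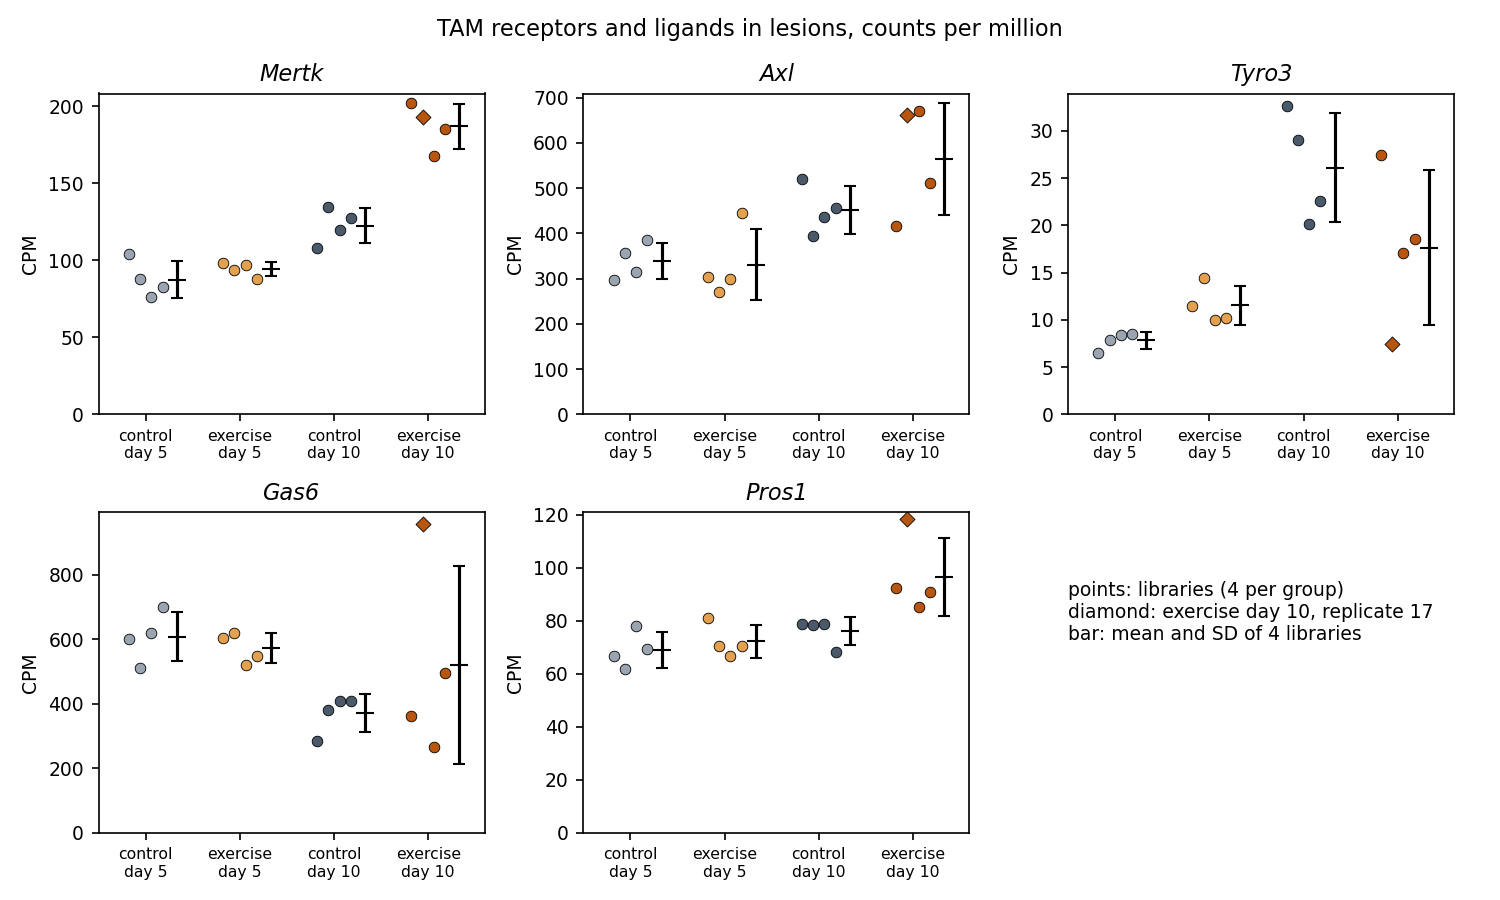
TMM-scaled CPM (y axis) of each family member in the 16 libraries, by group, with the mean and SD of 4 libraries beside the points. Mertk separates exercise from control at day 10 (168 to 202 against 108 to 135 CPM), and the diamond marks exercise day 10 replicate 17, which has the group's highest Gas6 and Pros1 and lowest Tyro3.

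Axl was the most abundant of the receptors per length and rose with time in exercise lesions. The gene lies on chromosome 7 at 25757273 to 25788705, minus strand (ENSMUSG00000002602). At day 5 the control libraries gave 297, 355, 315 and 386 CPM (338 ± 39.9), and the exercise libraries gave 304, 271, 300.0 and 446 CPM (330.1 ± 78.6). Exercise replicate 12 of day 5 was the highest of the day, and the groups otherwise overlapped. At day 10 the control libraries gave 520.4, 394, 435 and 456 CPM (452 ± 52.7), and the exercise libraries gave 415, 661, 669 and 510.3 CPM (564 ± 123). Exercise replicates 17 and 18 lay above every control library at day 10, and replicate 13 lay among them.

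From day 5 to day 10 Axl rose 1.71-fold in exercise lesions (log2 0.77, SE 0.17, adjusted p = 0.00625), although exercise replicate 12 of day 5 lay above replicate 13 of day 10. The call held in each of the 16 fits without 1 library (log2 0.67 to 0.95), and without replicate 17 the change was 0.69 (adjusted p = 0.0133). In control lesions the log2 difference was 0.42 (SE 0.16, adjusted p = 0.108). All 4 control libraries of day 10 lay above all 4 of day 5, and a fit of those 8 libraries alone gave an adjusted p of 0.0211. Exercise and control differed by -0.04 at day 5 (SE 0.16, adjusted p = 0.965) and by 0.32 at day 10 (SE 0.16, adjusted p = 0.428), neither past the threshold. Without replicate 17 the day 10 difference was 0.24.

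Tyro3 was the scarcest receptor, and its largest fitted change was a rise in control lesions. It lies on chromosome 2 at 119797733 to 119818104, plus strand (ENSMUSG00000027298). Control libraries at day 5 gave 6.5, 7.9, 8.4 and 8.5 CPM (7.83 ± 0.909), from 82 to 117 counts, and exercise libraries gave 11.5, 14.4, 10.0 and 10.2 CPM (11.5 ± 2.04), from 104 to 127 counts. All exercise libraries lay above all control libraries at day 5, but the difference of 0.55 (SE 0.28) had an adjusted p of 0.521, on the day when the housings also differed in depth. At day 10 control libraries gave 32.7, 29.0, 20.1 and 22.6 CPM (26.1 ± 5.76), and exercise libraries gave 27.5, 7.4, 17 and 18.6 CPM (17.6 ± 8.22). The lowest of these, 7.4 CPM from 76 counts, was replicate 17.

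In control lesions Tyro3 rose 3.33-fold from day 5 to day 10 (log2 1.74, SE 0.28, adjusted p = 0.000648), with a log2 range of 1.61 to 1.84 over the fits without 1 library. In exercise lesions the difference was 0.62 (SE 0.28, adjusted p = 0.166), and without replicate 17 it was 0.87 (adjusted p = 0.0110). Exercise minus control at day 10 was -0.57 (SE 0.27, adjusted p = 0.388) with all libraries and -0.31 without replicate 17. The difference between the days of the exercise effect was -1.12 (SE 0.39, adjusted p = 0.504), so the unlike change in the 2 housings was not established. Markers of mature oligodendrocytes moved with Tyro3, though not alone. From day 5 to day 10 in control lesions, 5 of 9 astrocyte markers (median 0.60) and 3 of 8 fibroblast and meningeal markers (0.83) were called higher (5.66% of all genes). Of 10 neuron markers 3 were called lower (median -0.59, against 6.64% of all genes). For mature oligodendrocytes 6 of 10 were called higher (median 0.90). Their 10 genes summed to 11025 to 15155 CPM in control lesions at day 5 and 24288 to 27236 CPM at day 10, and in exercise lesions to 12231 to 17223 and 12165 to 27870 CPM. Replicate 17 was lowest of the exercise day 10 group in both Tyro3 and these sums. It was also lowest in the summed astrocyte (4976 CPM), fibroblast and meningeal (1638 CPM) and neuron markers (160 CPM). The part of RNA from oligodendrocytes or these other cells in the Tyro3 values was not tested. In lesion tissue more cells of a type and more RNA per cell cannot be told apart, here or for the other genes.

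Gas6 had the highest group means per length at both days, and in control lesions every library of day 10 lay below every library of day 5. The gene lies on chromosome 8 at 13465374 to 13494490, minus strand (ENSMUSG00000031451), and Tmem255b overlaps it on the other strand. At day 5 control libraries gave 601, 512, 620 and 699 CPM (608 ± 77.0), and exercise libraries gave 602, 618, 521 and 548 CPM (573 ± 45.5). At day 10 control libraries gave 284, 379, 409.8 and 407 CPM (370.2 ± 58.8). Exercise libraries at day 10 gave 362, 957, 265 and 494 CPM (519.7 ± 306), with replicate 17 above every other library of the study.

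The control difference from day 5 to day 10 in Gas6 was -0.72 on the log2 scale (SE 0.27, adjusted p = 0.0935). It passed the threshold without exercise replicate 17 (-0.72, adjusted p = 0.00477) or replicate 18 of day 10 (-0.71, adjusted p = 0.0355), and in a fit of the 8 control libraries alone (adjusted p = 0.00257). In exercise lesions the difference was -0.14 (SE 0.27, adjusted p = 0.789). Without replicate 17 it became -0.61 (adjusted p = 0.0277), and without replicate 18 it turned to 0.07 (adjusted p = 0.894). Exercise minus control was -0.09 at day 5 (SE 0.27, adjusted p = 0.946) and 0.49 at day 10 (SE 0.27, adjusted p = 0.458), and without replicate 17 the day 10 value was 0.01. In replicate 17 the 10 general phagocyte markers summed to 8667 CPM, against 5878 to 6765 CPM in the other exercise libraries of day 10. The part of these cells in its Gas6 value was not tested.

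**Figure D2:**
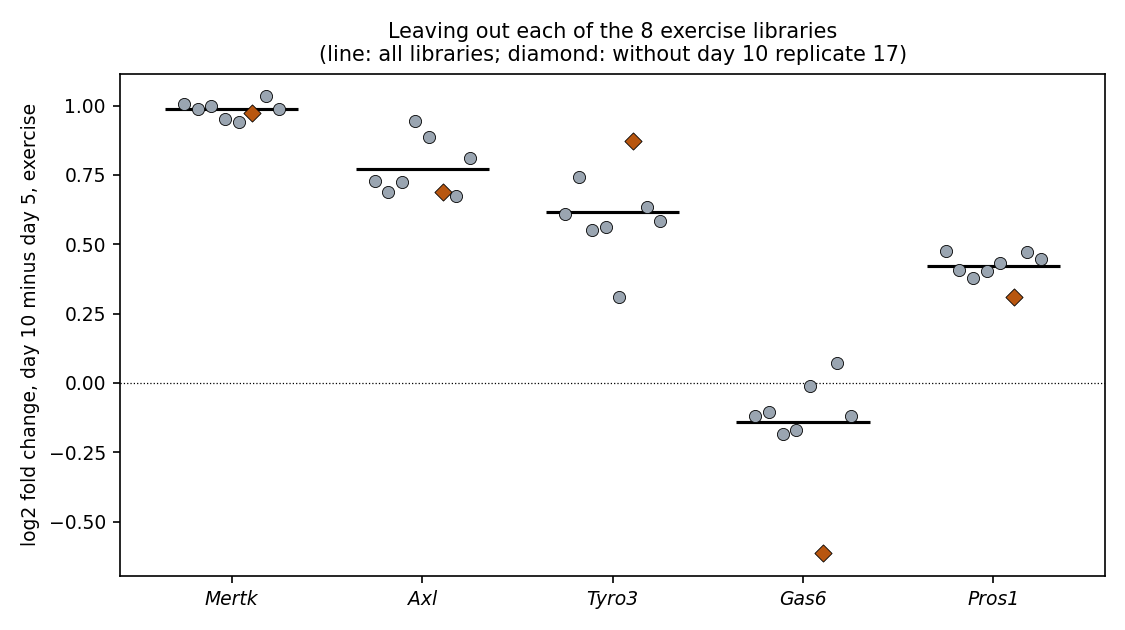
Fitted log2 change from day 5 to day 10 in exercise lesions (y axis) for each family member, with all libraries (line) and leaving out each of the 8 exercise libraries in turn (points). Without replicate 17 of day 10 (diamond) Gas6 moves from -0.14 to -0.61 and Tyro3 from 0.62 to 0.87, while Mertk stays between 0.94 and 1.03.

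Pros1 varied least. It lies on chromosome 16 at 62854307 to 62929346, plus strand (ENSMUSG00000022912). Control libraries gave 66.8, 61.8, 78.1 and 69.3 CPM at day 5 (69.0 ± 6.80) and 78.7, 78.3, 78.8 and 68.1 CPM at day 10 (76.0 ± 5.24). Exercise libraries gave 81.2, 70.3, 66.6 and 70.6 CPM at day 5 (72.2 ± 6.25) and 92.3, 118, 85.3 and 90.7 CPM at day 10 (96.6 ± 14.7). All 4 exercise libraries of day 10 lay above every library of the other groups, and replicate 17 was again the highest.

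Pros1 rose 1.34-fold from day 5 to day 10 in exercise lesions (log2 0.42, SE 0.11, adjusted p = 0.0237). The call was lost without replicate 17 (log2 0.31, adjusted p = 0.0581). It was also lost without exercise replicate 2 (0.41, adjusted p = 0.0601), replicate 7 (0.38, adjusted p = 0.0772) or replicate 12 (0.40, adjusted p = 0.0587) of day 5. In control lesions the change was 0.14 (SE 0.11, adjusted p = 0.464). Exercise minus control was 0.07 at day 5 (SE 0.11, adjusted p = 0.886) and 0.35 at day 10 (SE 0.11, adjusted p = 0.216), so the separation of the groups at day 10 did not pass the threshold. The day 10 value was 0.24 without replicate 17.

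**Figure D3:**
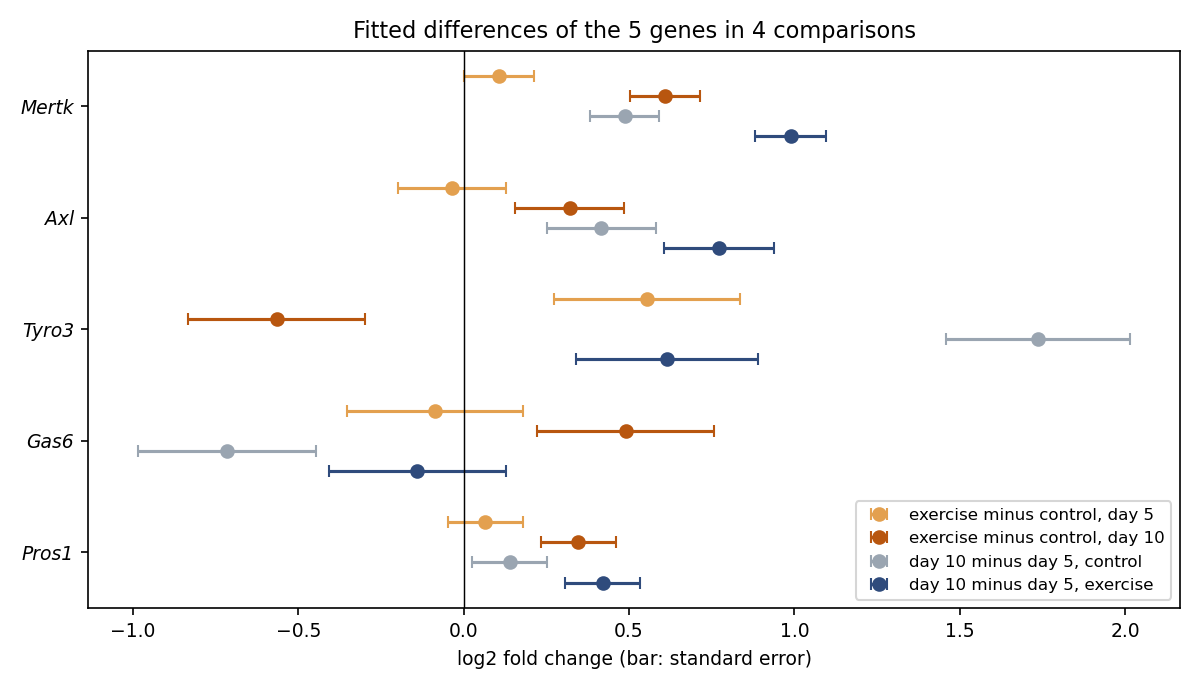
Fitted log2 fold changes (x axis, bars are standard errors) of the 5 genes in exercise against control on each day and in day 10 against day 5 within each housing. The Tyro3 rise in control lesions (1.74) is the largest value, and at day 5 no member passed the threshold between exercise and control.

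Counted over the family, 0 of 5 genes passed the edgeR threshold between exercise and control at day 5, where 0% of all tested genes did. None passed at an unadjusted p under 0.05, where 10% of all genes did, and DESeq2 and limma-voom also called 0 of the 5. At day 10, 1 of 5 was called higher in exercise (Mertk, by which the family was chosen), against 0.106% of all genes called higher. Without replicate 17, 0 of 5 were called, where 0 of all tested genes were called. From day 5 to day 10, 2 of 5 were called higher in control lesions (Mertk and Tyro3; 5.66% of all genes) and 3 of 5 in exercise lesions (Mertk, Axl and Pros1; 5.17%). Nothing is read from Mertk in the exercise count, since its exercise values were known when the family was chosen, and Axl and Pros1 remain as the tested members. Without replicate 17 the exercise count was 3 higher (Mertk, Axl and Tyro3) and 1 lower (Gas6), and the control count 2 higher and 1 lower (Gas6). The shares of all genes between the days without replicate 17 are not given, so these counts are not read against a share. With all libraries 6.64% of all genes were called lower in control and 4.9% in exercise lesions. The exercise effect differed between the days for 0 of 5 genes, as for 0% of all genes. At an unadjusted p 2 of the 5 passed this test (Mertk, from which nothing is read here, and Tyro3, against 9.11% of all genes), and DESeq2 and limma-voom called 0. Groups without overlap were found for 1 of 5 members between the housings at day 5 (7.29% of all genes) and 2 of 5 at day 10 (Mertk and Pros1, against 5.88%). Between the days the number was 4 of 5 in control lesions (20%) and 2 of 5 in exercise lesions (Mertk and Pros1, against 14.1%). Mertk was known to be separate with exercise at day 10, so nothing is read from it in these exercise counts either. Each group enters 2 of these 4 comparisons, so the comparisons share libraries. The day 10 control libraries behind the Mertk rise in control lesions also gave its known exercise difference at day 10.

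The authors' deposited table of exercise against control, which leaves out replicate 17 at day 10, gave log2 differences at day 5 of 0.10 for Mertk, -0.04 for Axl, 0.55 for Tyro3, -0.09 for Gas6 and 0.06 for Pros1. Of these the authors' deposited table called none, with adjusted p from 0.135 for Tyro3 to 0.944 for Axl. At day 10 the authors' deposited table gave 0.58 for Mertk, 0.22 for Axl, -0.32 for Tyro3, 0.0020 for Gas6 and 0.22 for Pros1. Apart from Mertk, the adjusted p in the authors' deposited table ran from 0.503 for Pros1 to 0.9995 for Gas6.

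Per kilobase of gene length the family kept the order Gas6, Axl, Mertk, Pros1, Tyro3 in the group means of all 4 groups. Gas6 stood at 234, 221, 143 and 200.4 CPM per kb in control day 5, exercise day 5, control day 10 and exercise day 10. Axl stood at 67.2, 65.6, 89.7 and 112 CPM per kb, Mertk at 20.2, 21.7, 28.3 and 43.1, Pros1 at 16.9, 17.7, 18.6 and 23.6, and Tyro3 at 1.26, 1.86, 4.21 and 2.84. Gas6 and Axl overlapped across libraries in exercise lesions at day 10 (102 to 369 and 82.4 to 133 CPM per kb). Mertk and Pros1 overlapped in control lesions at day 5 (17.5 to 24.0 and 15.1 to 19.1 CPM per kb). All other neighbours in the order were apart in every library of a group.

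The 3 receptors together summed to 88.7 ± 7.17, 89.2 ± 14.5, 122 ± 8.61 and 158 ± 21.2 CPM per kb in the same order of groups. Axl made up 75.7%, 72.9%, 73.3% and 70.3% of that sum and Mertk 22.9%, 24.9%, 23.3% and 27.8%, with overlapping ranges in all groups. Tyro3 made up at most 4.10% of the receptor sum in a library. Of the 2 ligands, Gas6 made up 93.2% and 92.6% at day 5 and 88.3% and 87.9% at day 10 in control and exercise lesions. The Gas6 to Pros1 ratio per kb was 13.9 ± 1.5 and 12.5 ± 0.929 at day 5 and 7.74 ± 1.55 and 8.11 ± 3.46 at day 10. In control lesions the highest ratio at day 10 (9.43) lay below the lowest at day 5 (12.5), and in exercise lesions the days overlapped through replicate 17 (12.8).

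**Figure D4:**
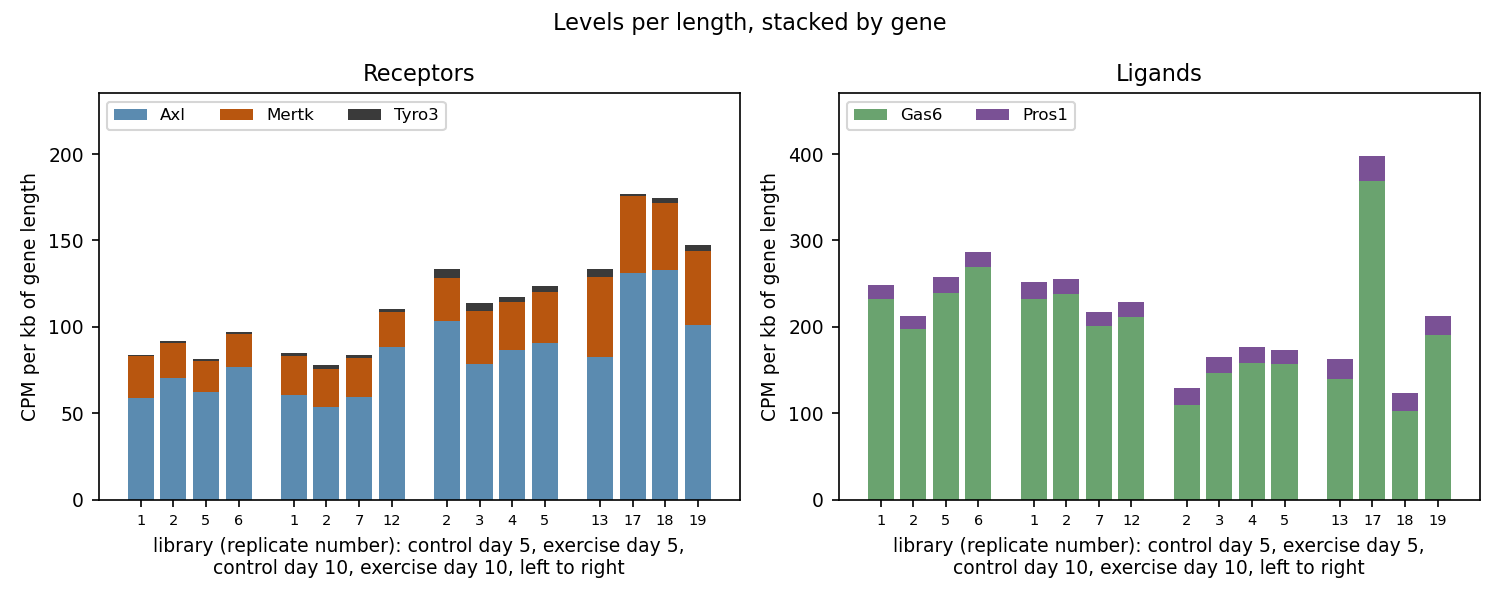
CPM per kb of gene length (y axis) in each library (x axis, by group and replicate number), stacked for the receptors on the left and the ligands on the right. Axl and Gas6 form most of each bar in all 16 libraries, and the ligand sum of 398 in exercise day 10 replicate 17 exceeds every other library.

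Some phagocyte markers rose between the days, as Mertk did, and others did not. Csf1r, the receptor that microglia and macrophages need to survive, stood at 332 ± 42.1, 364 ± 52.6, 556 ± 9.24 and 732 ± 49.8 CPM in control day 5, exercise day 5, control day 10 and exercise day 10. It rose from day 5 to day 10 in control (log2 0.74, SE 0.11, adjusted p = 0.000370) and in exercise lesions (1.01, SE 0.11, adjusted p = 5.23e-05). Exercise minus control at day 10 was 0.40 for Csf1r (SE 0.11, adjusted p = 0.156), with all exercise libraries above all control libraries. The 10 general phagocyte markers summed to 5040 to 6322, 5628 to 6262, 5201 to 6164 and 5878 to 8667 CPM in the 4 groups. From day 5 to day 10 the list held 2 genes called higher (Csf1r and Laptm5) and 2 called lower (Cd68 by 0.86 and Cd53 by 0.55) in control lesions, with a median of 0.05. Of all genes 5.66% were called higher and 6.64% lower there. In exercise lesions 4 of the list were called higher and 1 lower (Cd68 by 0.66), against 5.17% and 4.9% of all genes, with a median of 0.30. A ratio to Csf1r is thus a ratio to that gene and does not stand for the whole list. All 10 had a positive fitted exercise difference at day 10, with a median of 0.30 against 0.01 over all genes, and 1 was called (0.106% of all genes were called higher and 0.0861% lower). From day 5 to day 10, 7 of the 10 homeostatic microglia markers were above 0 in control lesions (median 0.50, 3 called higher). In exercise lesions all 10 were above 0 (median 0.87, 6 called higher). Of all genes 5.66% and 5.17% were called higher there, and 0 of these markers were called lower. In exercise minus control at day 10 the 10 homeostatic microglia markers were also all positive, with a median of 0.53. Of these, 0 were called by edgeR or DESeq2, against 5 at an unadjusted p (12.8% of all genes). The 10 markers of monocyte-derived macrophages did not follow. In the same comparison 4 of them were above and 6 below 0, with a median of -0.23 and 1 called lower. Markers of other cell types mostly had negative differences in the same comparison. All 10 mature oligodendrocyte markers (median -0.36), all 8 mural cell markers (-0.38), 9 of 10 endothelial markers (-0.75, 1 called lower) and 8 of 9 astrocyte markers (-0.32) were below 0, as were 5 of 8 fibroblast and meningeal markers (-0.60, 1 called lower). These marker medians include replicate 17 and are not given without it. Homeostatic microglia markers summed to 16323 CPM in that library and 7462 to 10705 CPM in the other exercise libraries of day 10. Control libraries of day 10 gave 6858 to 9584 CPM. Mature oligodendrocyte markers summed to 12165 CPM in replicate 17, 15858 to 27870 CPM in the other exercise libraries and 24288 to 27236 CPM in controls.

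As a ratio to Csf1r, Mertk was 0.269 ± 0.0699, 0.264 ± 0.0439, 0.221 ± 0.0200 and 0.256 ± 0.0170 in the same order. The exercise (0.234 to 0.275) and control (0.195 to 0.238) libraries of day 10 overlapped on that scale, which they did not in CPM. Set against the summed phagocyte list instead, Mertk was 1.53, 1.58, 2.17 and 2.73 CPM per 100 CPM, and the groups of day 10 overlapped through replicate 17 alone. That library gave 2.23, whereas the other exercise libraries gave 2.74 to 3.12 and the control libraries 2.04 to 2.50. Axl per Csf1r was 1.02 ± 0.0618, 0.901 ± 0.0995, 0.814 ± 0.102 and 0.776 ± 0.183. Gas6 per Csf1r was 1.84 ± 0.234 and 1.60 ± 0.312 at day 5 and 0.667 ± 0.108 and 0.712 ± 0.413 at day 10. Pros1 per Csf1r was 0.210, 0.201, 0.137 and 0.132. The part of phagocyte number in these levels was not tested. Markers of other blood cells were near 0: the 8 neutrophil markers summed to at most 26.5 CPM in a library and the 10 lymphocyte markers to at most 9.99 CPM. Of the 10 markers of monocyte-derived macrophages, 4 were called lower at day 10 in control and 4 in exercise lesions (6.64% and 4.9% of all genes). Their sums were 7716 to 14522 CPM at day 5 and 6477 to 7480 CPM at day 10 in control lesions, and 8207 to 14006 and 5481 to 8196 CPM in exercise lesions.

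**Figure D5:**
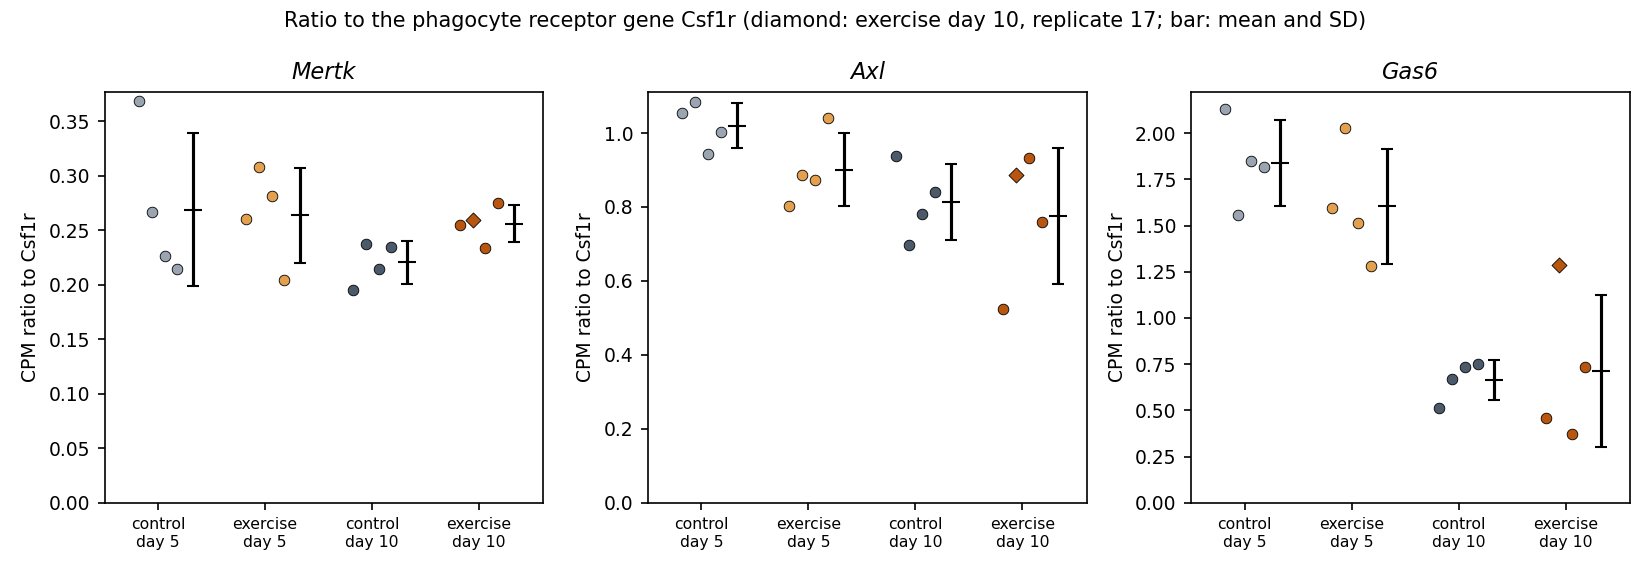
CPM of Mertk, Axl and Gas6 divided by the CPM of Csf1r (y axis) in each library, by group, with mean and SD of 4 libraries; the diamond is exercise day 10 replicate 17. Mertk lies between 0.195 and 0.368 in all groups, whereas Gas6 lies between 1.28 and 2.13 at day 5 and between 0.370 and 1.29 at day 10.

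Among 18 genes listed around the regulation and shedding of Mertk, not all of them regulators, Tgfbr1 and Mylip rose between the days in both housings. In control lesions 4 were called higher and 1 lower (5.66% and 6.64% of all genes), with a median of 0.25 against 0.01 over all genes. In exercise lesions 5 were called higher and 0 lower (5.17% and 4.9% of all genes), with a median of 0.30. Tgfbr1, a signalling receptor of TGF-beta, went from 269 ± 33.9 to 430 ± 56.6 CPM in control (log2 0.68, SE 0.12, adjusted p = 0.00177) and from 240.3 ± 39.6 to 551 ± 17.2 CPM in exercise lesions (1.20, SE 0.13, adjusted p = 5.23e-05). Mylip, a liver X receptor target that degrades lipoprotein receptors, rose by 0.62 in control and 0.77 in exercise lesions. Tgfbr2 rose by 0.78 in exercise lesions and was not called in control lesions (0.33, adjusted p = 0.123). Smad3, a TGF-beta signal carrier, rose by 0.48 in exercise lesions, and the Smad3 call was lost in 4 of the 16 fits without 1 library. In control lesions the cholesterol exporter Abcg1 rose by 0.35 and the nuclear receptor Nr4a1 by 1.17, and Nr1h3, which encodes liver X receptor alpha, fell by 1.23. Those 3 calls were lost in 10, 4 and 6 of the 16 fits. Without replicate 17 the list's count was 7 higher and 2 lower in control and 3 higher in exercise lesions. The shares of all genes in that fit are not given, so these counts are not read as above or below them. Exercise minus control had 0 of 18 called on each day, by edgeR, DESeq2 and limma-voom alike, with 1 at day 5 and 7 at day 10 at an unadjusted p under 0.05 (10% and 12.8% of all genes).

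Of 20 genes of TAM signalling and its cytokine brake, 19 were tested. The calls were 1 higher and 1 lower in control lesions (5.66% and 6.64% of all genes) and 0 higher and 1 lower in exercise lesions (5.17% and 4.9%), near the shares of all genes. In exercise lesions 9 passed at an unadjusted p, and DESeq2 called 5. No share of all genes is given for either count, so neither is read as above or below that share. In control lesions the kinase gene Src rose by 0.61 (adjusted p = 0.0333, lost in 5 of 16 fits) and Vav3, a guanine nucleotide exchange factor, fell by 1.16 (adjusted p = 0.0143). Vav3 also fell in exercise lesions, from 50.4 ± 14 to 21.8 ± 6.71 CPM (log2 -1.21, SE 0.29, adjusted p = 0.0138). The list's medians were -0.04 and 0.02, close to that of all genes. Of the 10 genes of vitamin K-dependent carboxylation, which gives Gas6 and Pros1 their Gla domains, 9 were tested. Only Nqo1, a quinone reductase, in control (0.82) and Mgp, itself a Gla protein, in exercise lesions (1.45, adjusted p = 0.0484) were called higher, and these calls were lost in 6 and 12 of the 16 fits. Of all genes 5.66% were called higher in control and 5.17% in exercise lesions.

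Several other ligands and phosphatidylserine receptors fell between the days. Lgals3 (galectin-3, a reported Mertk ligand) fell from 640.02 ± 63.8 to 226 ± 20 CPM in control (log2 -1.50, SE 0.24, adjusted p = 0.000809) and from 565 ± 124 to 225 ± 106 CPM in exercise lesions (-1.33, SE 0.24, adjusted p = 0.00243). Tub, another reported ligand, fell by 0.81 in control lesions. Of 23 listed phosphatidylserine receptors and bridges, 20 were tested. Between the days 0 were called higher and 6 lower in control lesions (5.66% and 6.64% of all genes; median -0.27). In exercise lesions 1 was called higher and 7 lower (5.17% and 4.9% of all genes; median -0.31). The scavenger receptor gene Cd36 fell from 338 ± 83.9 to 59.6 ± 10.7 CPM in control and from 345 ± 129.8 to 47.6 ± 25.9 CPM in exercise lesions. Stab1 fell by 0.96 and 0.62, and Cd300lb by 1.20 and 0.90, in control and exercise lesions. Itgav, an integrin subunit that binds the bridge protein Mfge8, fell by 0.57 in control and by 0.39 in exercise lesions. Its partner subunit Itgb5 rose by 0.60 in exercise lesions, and Cd300a fell there by 0.68.

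Exercise against control at day 10 gave 1 call in each of 2 lists. The lists were chosen with earlier results of these data known, so these calls are not independent of that choice. Havcr2 (Tim-3) stood at 74.3 ± 4.84 CPM in control and 130.1 ± 32.6 CPM in exercise lesions (log2 0.81, SE 0.16, adjusted p = 0.0424). Dock2, which activates Rac in leukocytes, stood at 72.8 ± 6.10 and 116 ± 14.4 CPM (0.68, SE 0.11, adjusted p = 0.0374). All exercise libraries lay above all control libraries for both, but the calls were lost in 13 and 8 of the 16 fits without 1 library. Without replicate 17 neither list had a call, and 0 of all tested genes were called. The background at day 10 was 0.106% of genes called higher. Of the 15 engulfment genes, 2 were called higher from day 5 to day 10 in exercise lesions (5.17% of all genes). These were Dock2 (0.47) and Elmo1 (0.56), partners in Rac activation, and the Elmo1 call was lost in 4 of the 16 fits. The list as a whole did not rise there, with 10 of 15 below 0 and a median of -0.08. In control lesions 0 of 15 were called by edgeR, against 8 at an unadjusted p (26.9% of all genes), 4 by DESeq2 and 1 by limma-voom. Of 17 genes of phosphatidylserine exposure and eat-me signals, 15 were tested, and 3 were called lower in control lesions (6.64% of all genes). These included Cd24a (-1.44), a do-not-eat-me signal, and Calr (-0.95), which encodes calreticulin. Cd24a also fell by 1.89 in exercise lesions, the list's 1 call there (4.9% of all genes were called lower).

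The genes most like each member were found by the root mean square difference of log2 CPM over the 16 libraries, each gene centred on its own mean. For Mertk these were Man2b1 (0.17), which encodes lysosomal alpha-mannosidase, the long noncoding RNA gene AU020206 (0.19) and Frmd4b (0.19), against a median of 0.57 over all genes. Man2b1 stood at 303 ± 26.9, 348 ± 26, 431 ± 63.5 and 553 ± 51.2 CPM in control day 5, exercise day 5, control day 10 and exercise day 10, the same order of groups as Mertk. For Axl they were Icosl (0.18), Ttc28 (0.19) and Soga1 (0.20), with a median of 0.52. For Tyro3 they included 2810468N07Rik (0.28) and Efnb3 (0.29), with a median of 0.81. For Gas6 they were Myc (0.18), Lgmn (0.19), a lysosomal protease gene, and Pkm (0.19), with a median of 0.59. For Pros1 they were Asap1 (0.11), Tspan14 (0.11) and Hif1a (0.12), with a median of 0.41.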

How the data were processed

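RNA from laser-microdissected lesions was amplified (REPLI-g), selected for poly(A) and sequenced strand-specifically as single 75 nt reads, per the labels' protocols. Per the submitters' processing notes, the tools were FastQC 0.11.4, TopHat2 2.0.10, Bowtie 1.1.2, featureCounts 1.5.0-p1 and DESeq2 1.12.4, with GRCm38. The deposited raw counts are per Ensembl gene and take reads from the sense strand only (option -s 1), per the file headers. The authors' deposited tables of exercise against control give log2 fold changes, standard errors and adjusted p-values, and the day 10 table leaves out exercise replicate 17 for a reason not given in the sources used here. Amplification before sequencing means that counts are not independent molecules.

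Symbols came from GENCODE M21, which matched 45229 of 46078 identifiers. Counts of the 16 libraries were fitted in 4 groups with edgeR 4.0.16 (R 4.3.3): TMM scaling, filterByExpr (minimum count 10, minimum total 15), quasi-likelihood test, 12 residual degrees of freedom, common biological coefficient of variation 0.236. P-values were adjusted by Benjamini-Hochberg over the 15096 genes tested, with a threshold of 0.05 ("called"). CPM are TMM-scaled and values per kb divide by the gene length in the count table. The family and the gene lists were chosen with earlier results of these data known. Up to 4 called genes per list, direction and comparison, by smallest p, and the 3 genes most like each member were named, except a few genes that are not reported here. Alternatives were other scaling, no filter, DESeq2 1.42.0, limma-voom 3.58.1, only the libraries compared, a replicate block and each library left out in turn. Tested on simulated data for day 10 exercise against control (15096 genes), the fit recovered 56.1% of genes changed by 1 and 89% of genes changed by 2 on the log2 scale. No 2 libraries of a group were alike within counting noise (chi-square per degree of freedom at least 9.87).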

Additional observations from a re-analysis of the deposited data

Results flagged for a closer look

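Within the 20 sets of 4 libraries (5 family members in 4 groups), 1 held a library far from the others. Pros1 in control lesions at day 10 was 68.1 CPM in replicate 5, whereas the nearest other library had 78.3 CPM. That gap was 0.946 of the group's whole range, above Dixon's 95% critical value for 4 libraries. Chance alone flags about 1 in 20 such sets.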

How the results depend on the processing

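Within edgeR, scaling by median-of-ratios size factors or by total counts, and dropping the filter, changed no family member's call. Over all settings other than leaving out a library, 165 of the family's values kept their direction and side of the threshold, 2 lost a call (Mertk between exercise and control at day 10 and Pros1 between the days in exercise lesions, both with only the 8 libraries compared) and 3 gained one. Those gained were Axl and Gas6 between the days in control lesions with only the 8 libraries compared, and Gas6 with DESeq2 (adjusted p = 0.0425). Leaving out 1 library kept 378 values, ended 13 calls, made 4 and turned 5 directions. Axl between exercise and control at day 5 turned to 0.04 without control replicate 6, and to 0.01, 0.050 and 0.01 without exercise replicates 1, 2 and 7 (range -0.21 to 0.050). Gas6 between the days in exercise lesions turned to 0.070 without replicate 18 (range -0.61 to 0.070). Over all genes, calls between exercise and control at day 5 numbered 0 (80 with DESeq2; 0 to 1 leaving out 1 library; 1513 at an unadjusted p under 0.05). At day 10 they numbered 29 (227 with DESeq2, 0 with only the 8 libraries compared, 0 to 133 leaving out 1 library). Between the days in exercise lesions they numbered 1520 (856 with only the 8 libraries compared, 975 to 1839 leaving out 1 library), and in control lesions 1858 (1301 to 2249). The exercise effect differed between the days for 0 genes (18 with DESeq2; 0 to 1 leaving out 1 library; 1376 at an unadjusted p). The causes of these moves were not tested. With the replicate block (limma-voom, correlation 0.0976) the counts were 0, 29, 2210, 1387 and 0 for exercise at day 5 and day 10, time in control and in exercise lesions, and the difference between the days. No family member's call changed under the block, and Havcr2 at day 10 lost its call (adjusted p = 0.0569). Deviations of the 5 same-numbered pairs of libraries correlated between -0.0691 and 0.0687. So few pairs, without other pairs to set them against, cannot settle whether the numbers pair the libraries. The labels give no pairing. Depth limits Tyro3 most, with 76 to 430 counts per library.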
